A study of Homo sapiens with 12 samples.

Results

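The genes described here are the 41 genes of the integrated stress response and of the unfolded protein response that were taken by symbol from a table of 23705 genes in A375 cells, an established human melanoma line with a BRAF mutation. They were grouped by role into 9 genes of amino acid supply, 12 chaperone and folding genes of the endoplasmic reticulum, 9 stress sensors and transcription factors, 5 intracellular regulators, 3 secreted factors and 3 genes of protein degradation. All cells were cultured for 24 h with vehicle (DMSO), 5 μM rosiglitazone (RGZ), 2 μM T0070907, or 5 μM RGZ and 2 μM T0070907 together, which is called the combination. RGZ activates the nuclear receptor PPARγ, T0070907 blocks it, and the combination served to separate changes that depend on the receptor from others. Each of the 4 conditions had 3 libraries, 1 from each of 3 independent experiments, and the technical replicates of an experiment had been pooled as RNA.

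*ATF4* is a transcription factor whose translation rises when kinases such as PERK (*EIF2AK3*) phosphorylate the initiation factor eIF2α, for example when amino acids are scarce or when unfolded proteins gather in the endoplasmic reticulum. Its targets supply amino acids, while the chaperones of the endoplasmic reticulum are controlled mainly by *ATF6* and by *XBP1*, whose mRNA is spliced by the kinase and nuclease IRE1 (*ERN1*). Prolonged activity of these arms induces *DDIT3*, also known as CHOP, and feedback genes such as *TRIB3* and *PPP1R15A*. In melanoma cells the *ATF4* arm is known for accompanying changes of cell state and nutrient supply.

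Levels are given as CPM, a gene's count scaled to the library size after TMM correction, and p-values come from edgeR's quasi-likelihood test, adjusted over the 13522 tested genes by the Benjamini-Hochberg method. A gene was called at an adjusted p under 0.05. Total counts per library lay between 8319455 and 11375227, and a count of 3, the floor, corresponded to 0.264 to 0.361 CPM. Libraries of the same experiment shifted together relative to the other experiments, so each value is given for the fit of the 4 conditions and, where the call differs, for the fit with the experiment as a further term. Vehicle 2 stands for the vehicle library of experiment 2, and so on. Libraries of experiment 1 shared less with each other than those of experiments 2 and 3 did. The correlations of their deviations from the condition means were 0.381 to 0.399 among the vehicle, RGZ and T0070907 libraries of experiment 1, 0.0793 to 0.194 between these and its combination library, and 0.629 to 0.758 within experiments 2 and 3. Of the melanocyte lineage markers, *SOX10* was present at 178 to 429 CPM and *MITF* at 24.4 to 59.6 CPM, while *TYR* had 0 counts in each library and *DCT* at most 1. The summed level of 7 markers of keratinocytes, leukocytes and endothelium, mostly KRT14, was 15.3 to 34.0 CPM with vehicle, 8.22 to 17.6 with RGZ, 21.9 to 38.4 with T0070907 and 13.9 to 31.4 with the combination, and CD3E was at 0 or 1 count and PTPRC at 2 or fewer. The part of these transcripts in the results was not tested. In these bulk samples, fewer cells with a transcript and less of it per cell cannot be told apart.

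RefSeq start regions (GRCh38.p14, 250 bases before to 50 after the start, 1 per gene) were matched for 38 of the 41 members and for 16542 genes of the table, and both strands were searched. The core of the CARE, the amino acid response element bound by *ATF4* (TGATGNAA), occurred in 7 of the 38 members (18.4%) and in 2.56% of all start regions. It was found in 3 of 7 amino acid genes and in 0 of 12 chaperone genes. The endoplasmic reticulum stress element (ERSE), bound by *ATF6* and *XBP1* with the factor NF-Y, is CCAAT and CCACG with 9 bases between them. It occurred in 6 members (15.8%) against 0.115% of all start regions, and these were 5 of 12 chaperones and *XBP1*, and 0 of the amino acid genes. ERSE-II, ATTGG and CCACG with 1 base between them, occurred in 3 members (7.89%) against 0.0786%. The core of the UPRE (TGACGTGG) occurred in 1 member, *HYOU1*, against 0.883% of all start regions, and it overlapped the more distant of the ERSE-II of *HYOU1*. A match describes letters only, and binding was not measured. The members were taken as genes of the responses that these elements serve. Their higher shares therefore describe how the lists were made and are no finding of these data.

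Of the genes with an ERSE, *HSPA5*, *HSP90B1* and *XBP1* were called for RGZ with the experiment as a term. *CALR*, *CANX* and *CRELD2* were not. A part of the element in these changes was not tested. The following lines give the ERSE of the chaperones and of *XBP1*, with the whole element in capitals. Each is written 5′ to 3′ on the strand of its gene.
HSPA5 (chr9:125241379-125241421, minus strand, element at -66 to -48): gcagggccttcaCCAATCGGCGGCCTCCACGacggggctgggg
HSP90B1, distant (chr12:103930204-103930246, plus strand, -194 to -176): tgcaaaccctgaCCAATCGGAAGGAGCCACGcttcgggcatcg
HSP90B1, near (chr12:103930309-103930351, plus strand, -89 to -71): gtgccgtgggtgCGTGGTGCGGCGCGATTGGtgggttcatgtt
XBP1 (chr22:28800591-28800633, minus strand, -52 to -34): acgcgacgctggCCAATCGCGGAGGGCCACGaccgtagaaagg
CALR (chr19:12938372-12938414, plus strand, -225 to -207): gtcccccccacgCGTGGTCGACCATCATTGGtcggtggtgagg
CANX (chr5:179698766-179698808, plus strand, -151 to -133): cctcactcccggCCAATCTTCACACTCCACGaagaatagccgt
CRELD2 (chr22:49918542-49918584, plus strand, -80 to -62): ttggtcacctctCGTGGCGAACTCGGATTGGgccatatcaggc
In the near element of *HSP90B1* and in *CALR* and *CRELD2* the element lies on the opposite strand, so it begins with CGTGG and ends with ATTGG.

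The CARE cores before the start are shown next, in capitals, since they belong to members of different roles. Those of *SLC3A2* and *SLC7A1* lie after the start.
ASNS (chr7:97872457-97872488, minus strand, -68 to -61): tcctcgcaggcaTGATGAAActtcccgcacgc
ATF3 (chr1:212565204-212565235, plus strand, -191 to -184): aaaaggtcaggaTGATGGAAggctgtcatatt
CHAC1 (chr15:40953250-40953281, plus strand, -209 to -202): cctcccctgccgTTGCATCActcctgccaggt
FGF21 (chr19:48755458-48755489, plus strand, -54 to -47): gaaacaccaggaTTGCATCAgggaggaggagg
HERPUD1 (chr16:56931954-56931985, plus strand, -176 to -169): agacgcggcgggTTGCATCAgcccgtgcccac
The ERSE-II elements were those of *HERPUD1*, *SDF2L1* and *HYOU1*, and *HYOU1* held a pair of them.
HERPUD1 (chr16:56932013-56932047, plus strand, -117 to -107): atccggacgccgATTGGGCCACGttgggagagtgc
SDF2L1 (chr22:21642102-21642136, plus strand, -188 to -178): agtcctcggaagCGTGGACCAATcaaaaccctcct
HYOU1, distant (chr11:119057368-119057402, minus strand, -185 to -175): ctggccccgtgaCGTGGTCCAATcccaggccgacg
HYOU1, near (chr11:119057262-119057296, minus strand, -79 to -69): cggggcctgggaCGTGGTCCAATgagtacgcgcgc
*HERPUD1*, which encodes a protein of the degradation machinery, was the 1 member that held both a CARE core and an ERSE-II.

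With vehicle, most of the genes were transcribed at high levels per length. Per kb of the longest annotated transcript, the median of the 40 tested members was 31.5 CPM against 7.81 over all tested genes with a known length. The calcium-binding chaperone *CALR* was highest at 677 ± 21.2 CPM per kb (SD, n = 3), followed by *HSP90B1*, the Hsp90-type chaperone of the endoplasmic reticulum, at 362 ± 16.5. The amino acid transporter subunits *SLC3A2* at 297 ± 7.16 and *SLC7A5* at 286 ± 25.4 did not differ beyond their spread, and neither did *ATF4* at 254 ± 11.1 and *HSPA5* at 248 ± 10.3 CPM per kb. The median was 127 CPM per kb for the amino acid genes and 90.3 for the chaperones. The sensors were far lower, with 10.5 ± 0.31 CPM per kb for *ATF6*, 2.89 ± 0.31 for *EIF2AK3* and 0.25 ± 0.03 for *ERN1*, the lowest tested member. *NUPR1* is not placed in this order, since its annotated transcripts range from short to 5491 nt and the longest was used. *FGF21*, which encodes a secreted metabolic hormone, had 0 counts in 9 libraries and 1 count in the other libraries, 1 each of vehicle, T0070907 and the combination. This is under the floor of 3 counts, and *FGF21* was not tested.

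**Figure D1:**
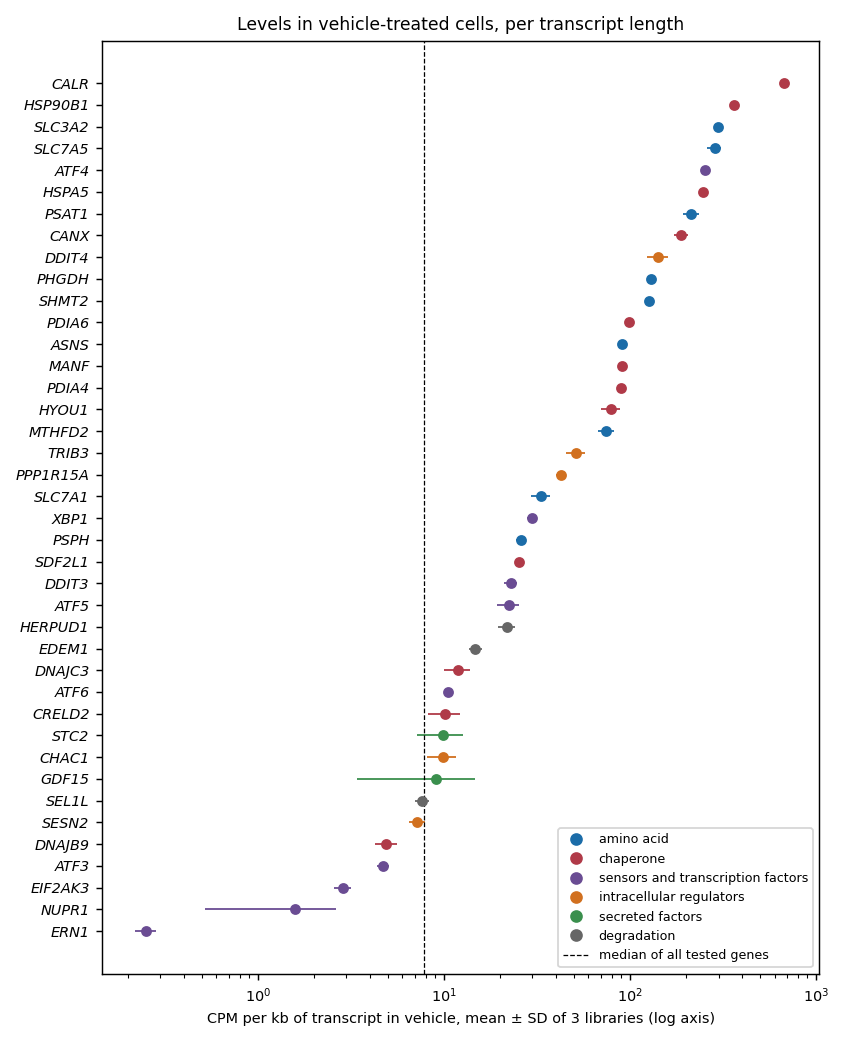
Level of the 40 tested members in vehicle-treated cells in CPM per kb of the longest annotated transcript, on a log axis, as mean ± SD of 3 libraries and coloured by role. *CALR* stood at 677 and *ERN1* at 0.25 CPM per kb, and the dashed line marks the median of all tested genes at 7.81; *NUPR1* is drawn too low if its short transcript is the one present.

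RGZ went with slightly higher mRNA levels of *HSPA5*, *HSP90B1*, *XBP1* and *ATF3* and with lower levels of *PSAT1*, *PHGDH* and *NUPR1*, which passed the test only once the experiment was a term. In the fit of the 4 conditions, 0 of 40 members were called for RGZ against vehicle, where 1.24% of all tested genes were, and 7 members had an unadjusted p under 0.05. DESeq2 and limma-voom without the experiment as a term also called 0 members. With the experiment as a term, 7 members (17.5%) were called, against 9.3% of all tested genes. The members were chosen with earlier results of these data known. A share above that of all genes, here or below, is therefore no evidence about the set. Leaving out 1 library at a time gave 2 to 5 members and 5.24% to 8.06% of all genes, the fewest members without RGZ 2 (2 of 40, against 5.61% of all genes). Of the 7 members, 4 were higher (4.95% of all genes) and 3 lower (4.35% of all genes). Over the 40 members the median log2 fold change was 0.01, and over all tested genes it was -0.01.

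Among the chaperones, 2 of 12 rose (4.95% of all genes did) in the fit with the experiment as a term and none fell. *HSPA5*, known as BiP, the central chaperone of the endoplasmic reticulum lumen, had 969, 929.9 and 1011 CPM in vehicle, 1140.3, 1081 and 1185 in RGZ, 882, 835 and 952 in T0070907 and 1061, 955 and 1110.1 in the combination, in the order of experiments 1, 2 and 3. All 3 RGZ libraries lay above all vehicle libraries, and the T0070907 and vehicle libraries overlapped. The log2 fold change of *HSPA5* for RGZ was 0.23 (SE 0.07, adjusted p = 0.232) and, with the experiment as a term, 0.23 (SE 0.05, adjusted p = 0.00338), and within the experiments it was 0.24, 0.22 and 0.23. *HSP90B1* had 1052, 1089 and 1151 CPM in vehicle, 1179.8, 1202 and 1306 in RGZ, 1012, 983 and 1156 in T0070907 and 1175, 1139.9 and 1284 in the combination. Its RGZ libraries were also all above the vehicle libraries, by a smaller margin, and the change was 0.16 (SE 0.08, adjusted p = 0.488) and, with the experiment as a term, 0.16 (SE 0.05, adjusted p = 0.0376). *MANF*, a small protein of the endoplasmic reticulum that can be secreted, had 134, 139 and 141 CPM in vehicle, 154, 147 and 169.6 in RGZ, 126, 136 and 147 in T0070907 and 167, 138 and 177 in the combination. It was higher with RGZ in each experiment and without overlap, but the test was not passed, with a change of 0.19 (SE 0.09, adjusted p = 0.521) and, with the experiment as a term, 0.18 (SE 0.07, adjusted p = 0.11). *HSPA5* stayed called without any single library of this comparison, at adjusted p between 0.0097 and 0.038. *HSP90B1* stayed called only when vehicle 2 was left out, and its adjusted p reached 0.207 in the other fits.

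The other chaperones did not pass either test for RGZ. *HYOU1*, a large chaperone that exchanges the nucleotide of *HSPA5*, had 355, 318 and 405 CPM in vehicle, 361, 348 and 381 in RGZ, 401, 351 and 405 in T0070907 and 354, 317 and 383 in the combination. *DNAJC3*, a J-domain co-chaperone, had 64.3, 57 and 77.9 CPM in vehicle, 70.0, 58.7 and 72.4 in RGZ, 63, 54.7 and 66.6 in T0070907 and 57.4, 58.3 and 61.7 in the combination. The groups overlapped for both. The log2 fold change with RGZ was 0.10 for *CALR* and 0.07 for *CANX*, the lectin chaperones of glycoproteins, 0.09 for *PDIA4* and 0.01 for *PDIA6*, both disulfide isomerases, and 0.02 for *HYOU1* and 0.01 for *DNAJC3*. It was 0.10 for *SDF2L1*, 0.02 for the J-domain protein *DNAJB9* and -0.07 for *CRELD2*, the 1 chaperone gene under 0.

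Of the 9 amino acid genes, 2 fell (4.35% of all genes did) and none rose in the fit with the experiment as a term. *PSAT1*, the aminotransferase of serine synthesis, had 514, 462 and 423 CPM in vehicle, 422, 415 and 349 in RGZ, 484, 458 and 406 in T0070907 and 455, 427 and 366 in the combination. The lowest vehicle library, of experiment 3, stood just above the highest RGZ library, of experiment 1, and within each experiment RGZ was lower. The change was -0.24 (SE 0.11, adjusted p = 0.467) and, with the experiment as a term, -0.24 (SE 0.05, adjusted p = 0.00366), and it stayed called without any single library. *PHGDH*, the dehydrogenase that opens the same pathway, had 404, 414 and 429 CPM in vehicle, 358, 360.1 and 360.2 in RGZ, 442, 435 and 461 in T0070907 and 467, 398 and 419 in the combination. Its RGZ libraries were nearly equal to each other and all below the vehicle libraries, and the change was -0.21 (SE 0.06, adjusted p = 0.2) and, with the experiment as a term, -0.21 (SE 0.06, adjusted p = 0.0269). Its call was kept only without vehicle 1, and the adjusted p reached 0.155 in the other fits. Asparagine synthetase, encoded by *ASNS*, had 216, 216 and 214 CPM in vehicle, 197, 195 and 193 in RGZ, 216, 208 and 202 in T0070907 and 211, 179 and 188 in the combination. *ASNS* was lower with RGZ in each experiment and without overlap, at -0.14 (SE 0.06, adjusted p = 0.456) and, with the experiment as a term, -0.14 (SE 0.06, adjusted p = 0.125), which did not pass. The log2 fold change with RGZ was -0.12 for *PSPH*, the phosphatase that closes serine synthesis, 0.01 for *SHMT2* and 0.02 for *MTHFD2*, both mitochondrial folate enzymes, and -0.04 for *SLC3A2*. Pseudogenes named after *ASNS*, *PSAT1*, *PSPH*, *MTHFD2*, *SLC7A5*, *HSPA5*, *ATF4* and *XBP1* are annotated, and how reads shared with them were counted is not given in the sources used here.

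The remaining amino acid transporters were not called for RGZ in either fit. *SLC7A5*, the light chain of the large neutral amino acid transporter, had 1417, 1187 and 1286 CPM in vehicle, 1411, 1148 and 1145 in RGZ, 1439, 1239 and 1127 in T0070907 and 1291, 1114 and 1089 in the combination. *SLC7A1*, a transporter of cationic amino acids, had 279, 234 and 222 CPM in vehicle, 250.4, 247 and 220.3 in RGZ, 277, 267 and 198 in T0070907 and 215, 240.3 and 185 in the combination. The groups overlapped for both, and the log2 fold changes with RGZ were -0.07 and -0.04.

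**Figure D2:**
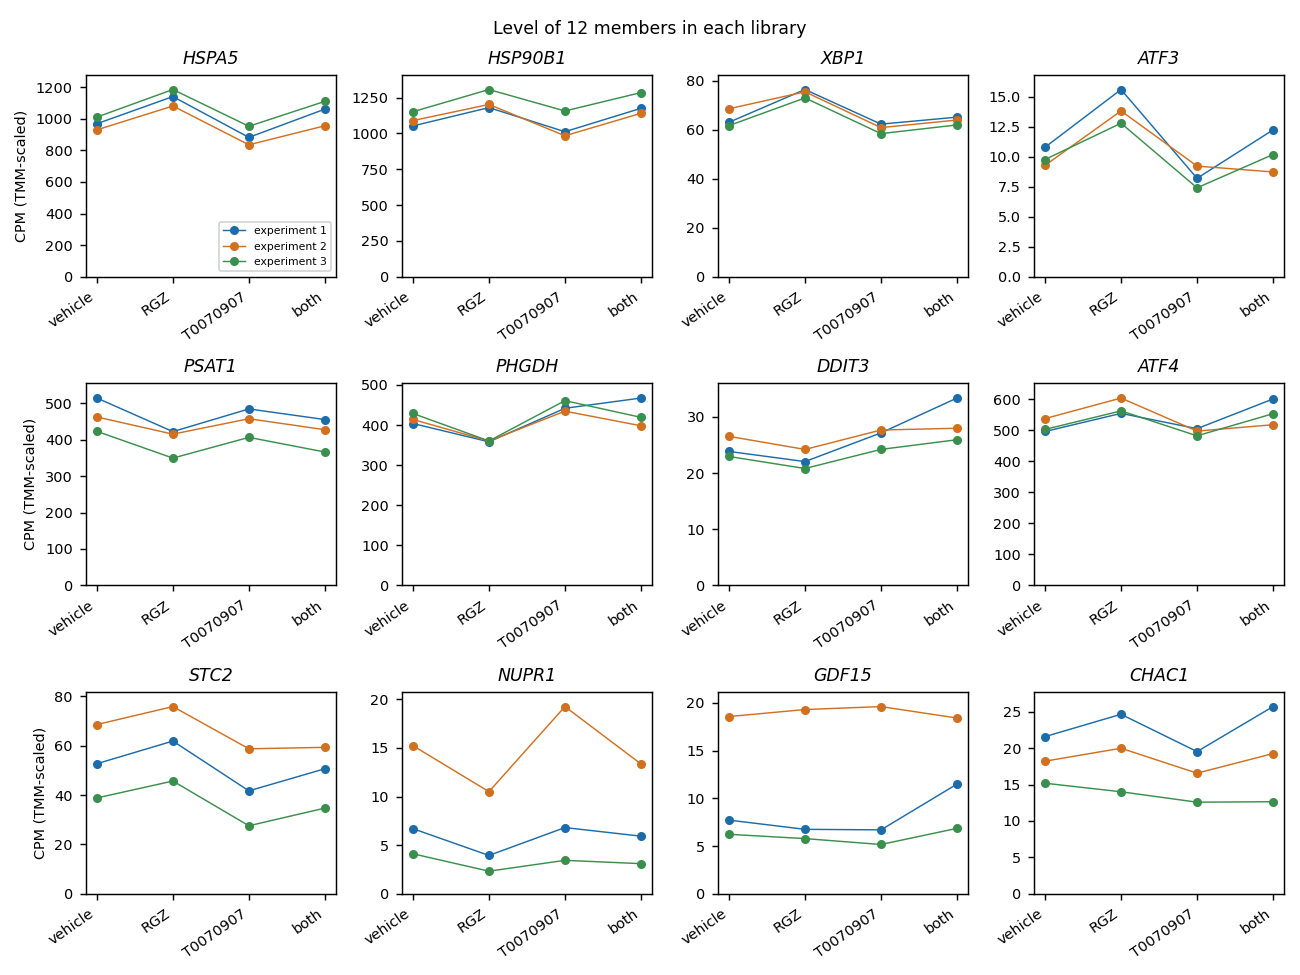
CPM of 12 members in each of the 12 libraries, with a line for each experiment across the 4 conditions and axes that start at 0. *HSPA5*, *HSP90B1*, *XBP1* and *ATF3* were higher with RGZ than with vehicle in each experiment and *PSAT1* and *PHGDH* lower, while *STC2*, *NUPR1*, *GDF15* and *CHAC1* were separated mainly by experiment.

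Of the 9 sensors and transcription factors, 2 rose and 1 fell with RGZ once the experiment was a term, where 4.95% of all genes rose and 4.35% fell. *XBP1*, which the unfolded protein response activates by splicing, had 63.1, 68.7 and 61.8 CPM in vehicle, 76.5, 75.6 and 73.1 in RGZ, 62.4, 61 and 58.5 in T0070907 and 65.2, 64 and 62 in the combination. All RGZ libraries were above all others, and the change was 0.22 (SE 0.06, adjusted p = 0.151) and, with the experiment as a term, 0.22 (SE 0.06, adjusted p = 0.031). The counts do not separate the spliced from the unspliced form. *ATF3*, a stress-induced transcription factor downstream of *ATF4*, had 10.8, 9.28 and 9.77 CPM in vehicle, 15.6, 13.8 and 12.8 in RGZ, 8.2, 9.22 and 7.41 in T0070907 and 12.2, 8.73 and 10.2 in the combination. Its RGZ libraries were above all others, and the change was 0.50 (SE 0.15, adjusted p = 0.186) and, with the experiment as a term, 0.50 (SE 0.13, adjusted p = 0.0152). *XBP1* stayed called only without vehicle 2 (adjusted p up to 0.167 otherwise) and *ATF3* only without RGZ 3 (up to 0.0745). DESeq2 with the experiment as a term called neither (adjusted p = 0.101 for *XBP1* and 0.0666 for *ATF3*). *NUPR1*, a small nuclear protein induced by stress, had 6.7, 15.2 and 4.12 CPM in vehicle, 3.95, 10.5 and 2.33 in RGZ, 6.82, 19.2 and 3.45 in T0070907 and 5.93, 13.4 and 3.11 in the combination. Groups overlapped, with experiment 2 high in every condition, but RGZ was lower than vehicle within each experiment, and the change was -0.64 (SE 0.75, adjusted p = 0.819) and, with the experiment as a term, -0.65 (SE 0.15, adjusted p = 0.00916). Without RGZ 2 its adjusted p was 0.0711, and it stayed called without any other single library.

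*ATF4* itself and its target *DDIT3* did not pass the test for RGZ in either fit. *ATF4* had 496, 538 and 503 CPM in vehicle, 555, 604 and 563 in RGZ, 505, 498 and 482 in T0070907 and 601, 518 and 554 in the combination. It was higher with RGZ in each experiment and without overlap, with a change of 0.16 (SE 0.07, adjusted p = 0.396) and, with the experiment as a term, 0.16 (SE 0.06, adjusted p = 0.108). *DDIT3*, the transcription factor tied to death under prolonged stress, had 23.8, 26.5 and 22.9 CPM in vehicle, 22, 24.2 and 20.8 in RGZ, 27.1, 27.7 and 24.2 in T0070907 and 33.4, 28 and 25.9 in the combination. The vehicle and RGZ libraries of *DDIT3* overlapped, and its change of -0.13 on the log2 scale did not pass. *ERN1*, the sensor IRE1, had 2.27, 1.78 and 1.88 CPM in vehicle, 1.04, 1.71 and 1.02 in RGZ, 2.08, 2.86 and 2.33 in T0070907 and 0.865, 1.68 and 0.857 in the combination. With RGZ its libraries were below those with vehicle, with a log2 fold change of -0.66 (SE 0.33, adjusted p = 0.518) and, with the experiment as a term, -0.67 (SE 0.30, adjusted p = 0.2), which did not pass. Its level was low, from 0.857 to 2.86 CPM over the 12 libraries. The log2 fold change with RGZ was -0.02 for *EIF2AK3*, -0.05 for *ATF6* and -0.03 for *ATF5*, a relative of *ATF4*.

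None of the 5 intracellular regulators, 2 tested secreted factors and 3 degradation genes was called for RGZ in either fit. Their log2 fold changes were 0.04 for *TRIB3*, a pseudokinase that restrains *ATF4*, 0.02 for *PPP1R15A*, the phosphatase subunit that restores translation, and 0.05 for *DDIT4* and -0.16 for *SESN2*, both inhibitors of the growth kinase complex mTORC1. They were 0.09 for *CHAC1*, which degrades glutathione, -0.04 for the secreted growth factor *GDF15* and 0.19 for *STC2*, a secreted glycoprotein. The value was 0.07 for *HERPUD1*, -0.01 for *EDEM1*, which hands misfolded glycoproteins to degradation, and -0.15 for *SEL1L*, a subunit of the ubiquitin ligase complex of the same process.

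With T0070907 alone, *STC2* was lower, and it was called only with the experiment as a term. In the fit of the 4 conditions 0 of 40 members were called, where 0.0074% of all tested genes were, and 0 members had an unadjusted p under 0.05. DESeq2 and limma-voom without the experiment as a term also called 0. With the experiment as a term 1 member (2.5%) was called, against 0.91% of all genes. This was *STC2*, which had 52.7, 68.5 and 38.8 CPM in vehicle, 61.9, 75.8 and 45.7 in RGZ, 41.7, 58.7 and 27.6 in T0070907 and 50.6, 59.3 and 34.7 in the combination. The conditions overlapped across experiments, but within each experiment the T0070907 library was the lowest of the 4 conditions, and the change was -0.32 (SE 0.29, adjusted p = 1) and, with the experiment as a term, -0.34 (SE 0.08, adjusted p = 0.0448). *STC2* stayed called only without T0070907 2, and its adjusted p was up to 0.35 without each other library. DESeq2 with the experiment as a term did not call it (adjusted p = 0.0587). Over all members the log2 fold change ranged from -0.32 to 0.29 with a median of -0.04.

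The combination differed from vehicle for 0 of 40 members in both edgeR fits, and for 0% of all tested genes. At an unadjusted p under 0.05 there were 5 members without and 11 with the experiment as a term, and DESeq2 and limma-voom called 0 members with and without that term. DESeq2 with that term called 1.68% of all genes. The edgeR count depended on single libraries. Without the combination library of experiment 2, in the fit with the experiment as a term, 13 members and 19.2% of all genes were called, with *MANF*, *ATF4*, *CALR*, *SDF2L1*, *DDIT3*, *HSP90B1* and *GDF15* as higher and *SEL1L*, *SLC7A1*, *PSAT1*, *DNAJC3*, *CANX* and *SLC7A5* as lower. Without vehicle 2, 3 members (against 6.46% of all genes) were called, *MANF* as higher and *SEL1L* and *SLC7A1* as lower. Without the combination library of experiment 1 or of experiment 3, or without vehicle 1 or 3, 0 members were called.

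Compared with RGZ alone, adding T0070907 went with higher *PHGDH* and *DDIT3* and lower *ATF3*, *XBP1* and *STC2* once the experiment was a term. In the fit of the 4 conditions the combination differed from RGZ alone for 0 of 40 members, where 1.24% of all genes were called. Of the members 5 had an unadjusted p under 0.05, limma-voom called 0, and DESeq2 called 1, *PHGDH*. With the experiment as a term 5 members (12.5%) were called, a share close to the 11.4% of all genes. The count is therefore not particular to the members. Of the 5 members called, 2 were higher (5.55% of all genes) and 3 lower (5.88%). *PHGDH* was higher at 0.25 (SE 0.06, adjusted p = 0.0933) and, with the experiment as a term, 0.25 (SE 0.06, adjusted p = 0.00754), and *DDIT3* was higher at 0.38 (SE 0.11, adjusted p = 0.165) and, with the experiment as a term, 0.38 (SE 0.09, adjusted p = 0.0111). The *DDIT3* libraries of the combination all lay above those of RGZ, with the highest value in experiment 1. *ATF3* was lower at -0.44 (SE 0.15, adjusted p = 0.237) and, with the experiment as a term, -0.44 (SE 0.12, adjusted p = 0.0258). *XBP1* was lower at -0.24 (SE 0.06, adjusted p = 0.108) and, with the experiment as a term, -0.24 (SE 0.06, adjusted p = 0.0184), by 0.23, 0.24 and 0.24 within the experiments. *STC2* was lower in each experiment, at -0.34 (SE 0.29, adjusted p = 0.662) and, with the experiment as a term, -0.35 (SE 0.08, adjusted p = 0.00539). These comparisons share the RGZ libraries with those of RGZ against vehicle, so a high RGZ library moves both. *STC2* stayed called without any single library. The calls of *PHGDH* were lost without RGZ 1 or RGZ 3 (adjusted p up to 0.061), those of *DDIT3* without RGZ 1 or the combination library of experiment 1 (up to 0.0879), and those of *ATF3* and *XBP1* without 5 and 4 of the 6 libraries (up to 0.111 and 0.0883). DESeq2 with the experiment as a term did not call *ATF3* (adjusted p = 0.109) or *XBP1* (0.0591). Without the combination library of experiment 2, 10 members and 19.1% of all genes were called, and without RGZ 1 only *STC2* was, against 6.6% of all genes.

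RGZ given on top of T0070907 went with higher levels of the chaperone mRNAs *HSPA5*, *HSP90B1* and *MANF* and a lower level of *ERN1*, again only with the experiment as a term. In the fit of the 4 conditions 0 of 40 members were called against T0070907 alone, where 0.037% of all genes were, and 5 members had an unadjusted p under 0.05. DESeq2 and limma-voom without the experiment as a term also called 0. With that term 4 members (10%) were called, a share close to the 8.76% of all genes, so this count is not particular to the members either. Of the 4 members called, 3 were higher, all chaperones (4.55% of all genes), and 1 was lower (4.22%). *HSPA5* was higher at 0.23 (SE 0.07, adjusted p = 0.261) and, with the experiment as a term, 0.23 (SE 0.05, adjusted p = 0.00941), and within the experiments the log2 difference was 0.27, 0.19 and 0.22. *HSP90B1* was higher at 0.19 (SE 0.08, adjusted p = 0.287) and, with the experiment as a term, 0.19 (SE 0.05, adjusted p = 0.0227). *MANF* was higher at 0.24 (SE 0.09, adjusted p = 0.283) and, with the experiment as a term, 0.23 (SE 0.07, adjusted p = 0.0415), with 0.41, 0.02 and 0.27 within the experiments. The conditions did not overlap for *HSPA5* and overlapped for *HSP90B1* and *MANF*. *ERN1* was lower at -1.08 (SE 0.32, adjusted p = 0.261) and, with the experiment as a term, -1.08 (SE 0.29, adjusted p = 0.0293), on few counts. Without the combination library of experiment 3, or without T0070907 1 or 2, 0 members were called, and over all genes the share was also lower, at 0.791%, 1.58% and 1.24%. Without the combination library of experiment 2, 12 members and 24.8% of all genes were called, and without the combination library of experiment 1, *HSPA5* and *HSP90B1* were, against 4.67% of all genes. *MANF* and *ERN1* were each kept in 1 of the 6 fits with a library left out, that without the combination library of experiment 2. Their adjusted p otherwise reached 0.233 and 0.135. *HSPA5* and *HSP90B1* were each kept in 3 of the 6 (adjusted p up to 0.0823 and 0.159). DESeq2 with the experiment as a term called the 3 chaperones and gave no adjusted p for *ERN1*.

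The effect of RGZ was not shown to differ with and without T0070907 for any member. The interaction was called for 0 of 40 members in both fits, where it was called for 0% of all tested genes without and 0.281% with the experiment as a term. No member had an unadjusted p under 0.05 for it in either fit, and DESeq2 and limma-voom called 0 members as well. For *HSPA5* the interaction was 0.00 on the log2 scale (SE 0.07 with the experiment as a term), for *ATF4* 0.01 (SE 0.08), for *DDIT3* 0.27 (SE 0.13) and for *XBP1* -0.15 (SE 0.09). RGZ against vehicle and the combination against T0070907 share no library. The RGZ change had the same sign in both for 29 of 40 members (72.5%), against 69.7% of all genes. Of the 12 chaperones, 8 were higher in both and 0 lower in both, and of the 9 amino acid genes, 5 were lower in both and 1 higher in both. Over all 13522 tested genes, 4451 were higher in both and 4968 lower in both, and the share with the same sign was 66.7% in each of these role lists, beside 69.7% of all genes.

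**Figure D3:**
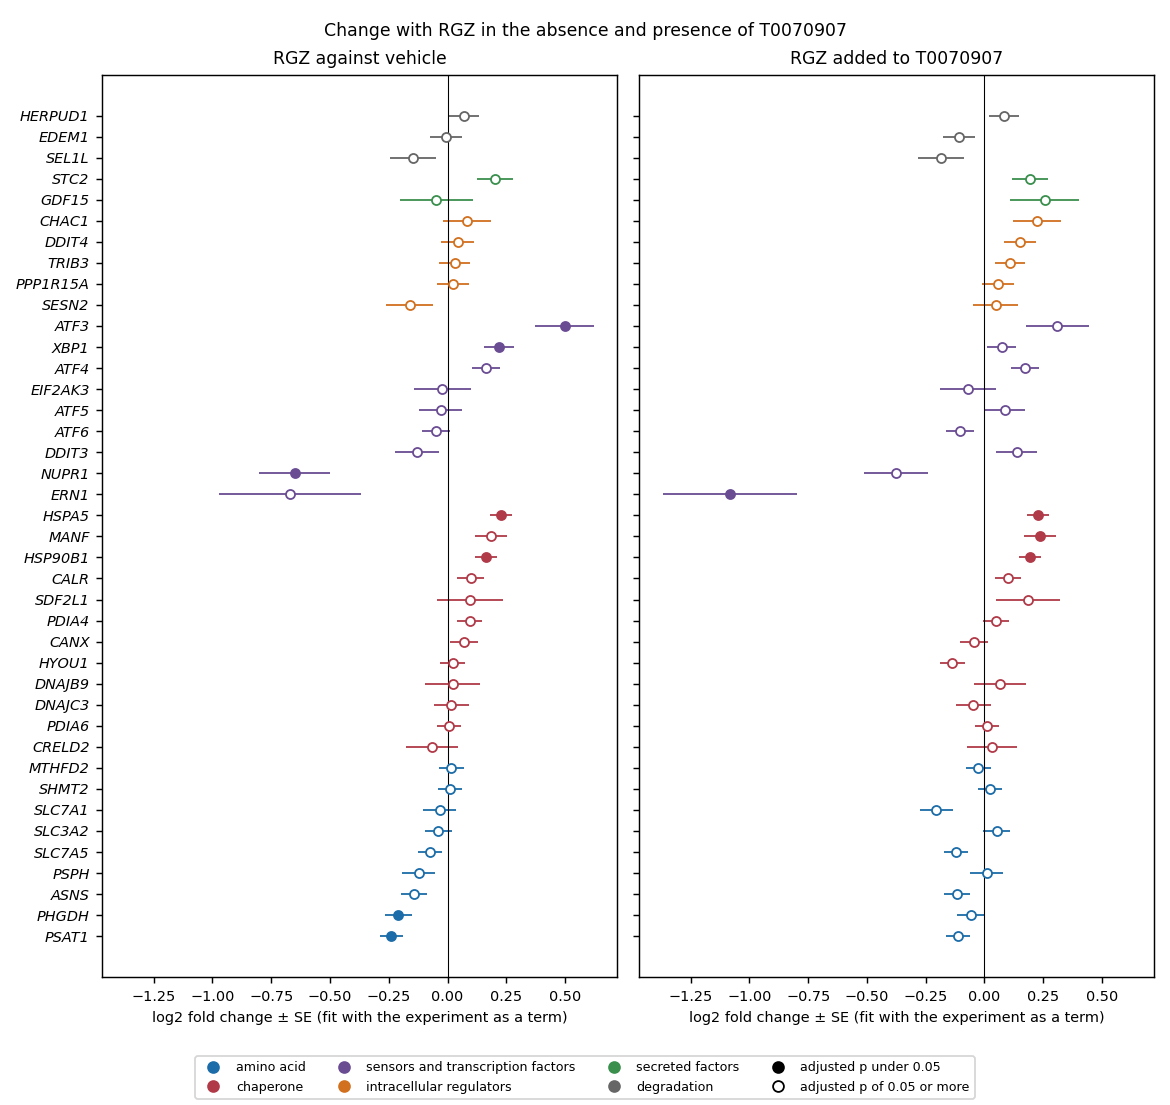
Log2 fold change ± SE of the 40 tested members for RGZ against vehicle and for the combination against T0070907 alone, from the fit with the experiment as a term, coloured by role, with filled points for an adjusted p under 0.05. Called chaperones lie to the right in both panels (*HSPA5* at 0.23 and 0.23), and *ERN1* lies farthest to the left, called only in the second panel.

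The median of the amino acid genes was below that of the chaperones in the comparisons where RGZ was added, while the ranges of their members overlapped. With RGZ against vehicle the median log2 fold change was -0.07 over the 9 amino acid genes and 0.08 over the 12 chaperones, beside -0.01 over all tested genes. Within the experiments the amino acid median was below the chaperone median by 0.26, 0.16 and 0.20 (mean of the differences -0.21 ± 0.05, SD, n = 3). With the combination against T0070907 alone the medians were -0.06 and 0.06, and the differences within the experiments were -0.15, -0.15 and -0.09. The members ranged from -0.21 to 0.06 for the amino acid genes and from -0.14 to 0.24 for the chaperones in that comparison, and from -0.24 to 0.02 and from -0.07 to 0.23 for RGZ against vehicle. With the combination against vehicle, which shares libraries with both, they were -0.09 and 0.08, and the differences were -0.14, -0.07 and -0.16. For T0070907 against vehicle the difference was 0.02, 0.04 and -0.07, and for the combination against RGZ it was 0.12, 0.05 and 0.01. These medians are a description of lists chosen with results known, and they were not tested. With 1 library left out, the amino acid minus chaperone difference for RGZ against vehicle ranged from -0.221 to -0.0718. For the combination against T0070907 it ranged from -0.209 to -0.0524. The lowest RGZ values in the amino acid list were those of *PSAT1*, *PHGDH* and *ASNS*, and the highest in the chaperone list those of *HSPA5*, *MANF* and *HSP90B1*.

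**Figure D4:**
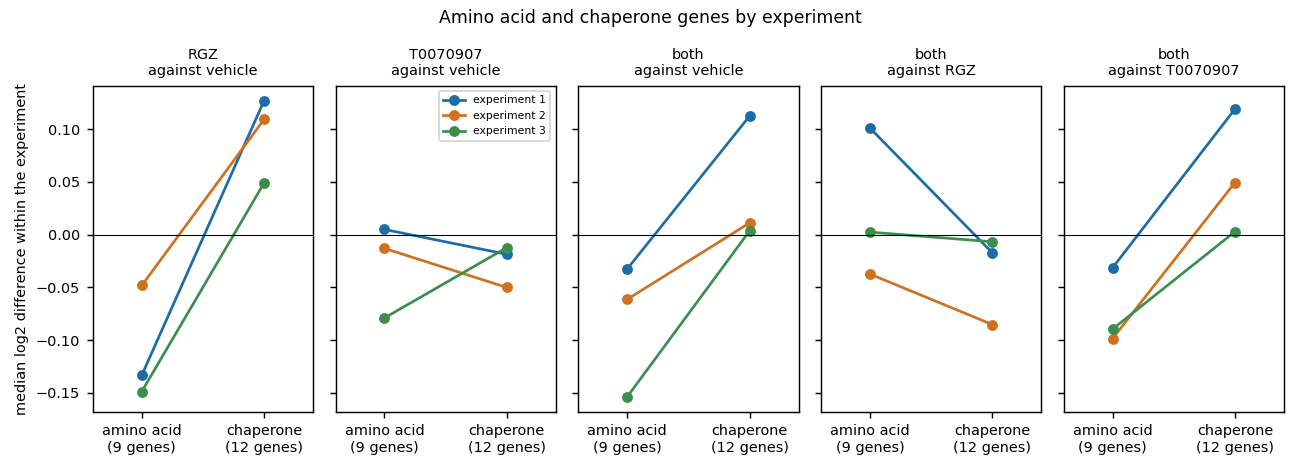
Median log2 difference within each experiment for the 9 amino acid genes and the 12 chaperone genes in 5 comparisons, with a line for each experiment. Each line rises from left to right in the 3 comparisons where RGZ is added to cells without it, by 0.16 to 0.26 for RGZ against vehicle.

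Many members differed between the 3 experiments. In the model with condition and experiment, 17 of 40 members (42.5%) differed between experiments, against 30.5% of all tested genes. The amino acid genes made up 6 of these (*PSAT1*, *PSPH*, *MTHFD2*, *SLC7A5*, *SLC3A2* and *SLC7A1*), and all 9 were lower in experiment 3 than in experiment 1, *PHGDH* barely, with a median log2 difference of -0.23. Of the 12 chaperones 4 were called (*HSPA5*, *HSP90B1*, *DNAJC3* and *HYOU1*), and 11 were higher in experiment 3 than in experiment 1, with a median of 0.09. The share of chaperones called was close to that of all genes. Over all 13522 tested genes the median was -0.01, with 6421 higher and 7101 lower in experiment 3 than in experiment 1. The calls of *HSPA5* and *HSP90B1* were each lost without 2 single libraries (adjusted p up to 0.061 and 0.0704), that of *PSPH* without the combination library of experiment 3 (0.0852) and that of *SLC3A2* without RGZ 1 (0.0619). Among the sensors and transcription factors, *NUPR1* was called and the other 8 were not, and *ATF4* differed by at most 1.03-fold between experiments.

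The widest spread belonged to *NUPR1* and the secreted factors. Averaged over conditions, *NUPR1* was 4.48-fold higher in experiment 2 than in experiment 3 (adjusted p = 6.5e-10), beside a median fold of 1.14 between the highest and lowest experiment over all genes. *GDF15* had 7.72, 18.6 and 6.24 CPM in vehicle, 6.76, 19.3 and 5.79 in RGZ, 6.7, 19.6 and 5.17 in T0070907 and 11.5, 18.4 and 6.86 in the combination. All 4 libraries of experiment 2 exceeded all others, 3.15-fold above experiment 3 (adjusted p = 2.2e-08). *STC2* followed the same order of experiments, at 1.79-fold (adjusted p = 6.2e-08). *CHAC1* had 21.6, 18.2 and 15.2 CPM in vehicle, 24.6, 20.0 and 14 in RGZ, 19.5, 16.6 and 12.6 in T0070907 and 25.7, 19.2 and 12.6 in the combination. Here experiment 1 was highest and experiment 3 lowest in each condition, by 1.68-fold (adjusted p = 1.4e-05). *TRIB3* had 127, 145 and 115 CPM in vehicle, 136, 157 and 105 in RGZ, 128, 137 and 100.4 in T0070907 and 145, 140.0 and 108 in the combination. Its libraries of experiment 3 were below all others, 1.35-fold under experiment 2 (adjusted p = 2.7e-05).

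Of the remaining regulators and degradation genes, *DDIT4* and *HERPUD1* differed between experiments. *DDIT4* had 213, 277 and 252 CPM in vehicle, 218, 301 and 248 in RGZ, 225, 232 and 232 in T0070907 and 245, 261 and 259 in the combination. Experiment 1 was the lowest for *DDIT4*, by 1.19-fold (adjusted p = 0.0142), and conditions overlapped. This call was lost without RGZ 1, RGZ 2 or vehicle 1 (adjusted p up to 0.0896). *HERPUD1* had 66.8, 70.1 and 57 CPM in vehicle, 68.8, 69.2 and 65 in RGZ, 61.8, 66.3 and 57.6 in T0070907 and 68.6, 67.6 and 61 in the combination. Experiment 3 was the lowest for *HERPUD1* in each condition (1.14-fold, adjusted p = 0.0369), but this call held in 6 of 17 alternatives (adjusted p up to 0.168), and not with DESeq2 (0.133). *SEL1L* and *EDEM1* did not pass the test. *EDEM1* had 89.9, 84 and 98.5 CPM in vehicle, 85.6, 89.5 and 96.1 in RGZ, 81, 94.1 and 91.5 in T0070907 and 73.6, 85.3 and 88.5 in the combination. *SEL1L* had 61.1, 55.2 and 66.1 CPM in vehicle, 57.7, 49.2 and 57.4 in RGZ, 54.5, 53.9 and 57.2 in T0070907 and 38, 53 and 54.2 in the combination. The lowest value of each was that of the combination library of experiment 1. Without the combination library of experiment 1, 20 members and 43% of all genes differed between experiments, and without that of experiment 3, 13 members and 24.5% of all genes did.

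**Figure D5:**
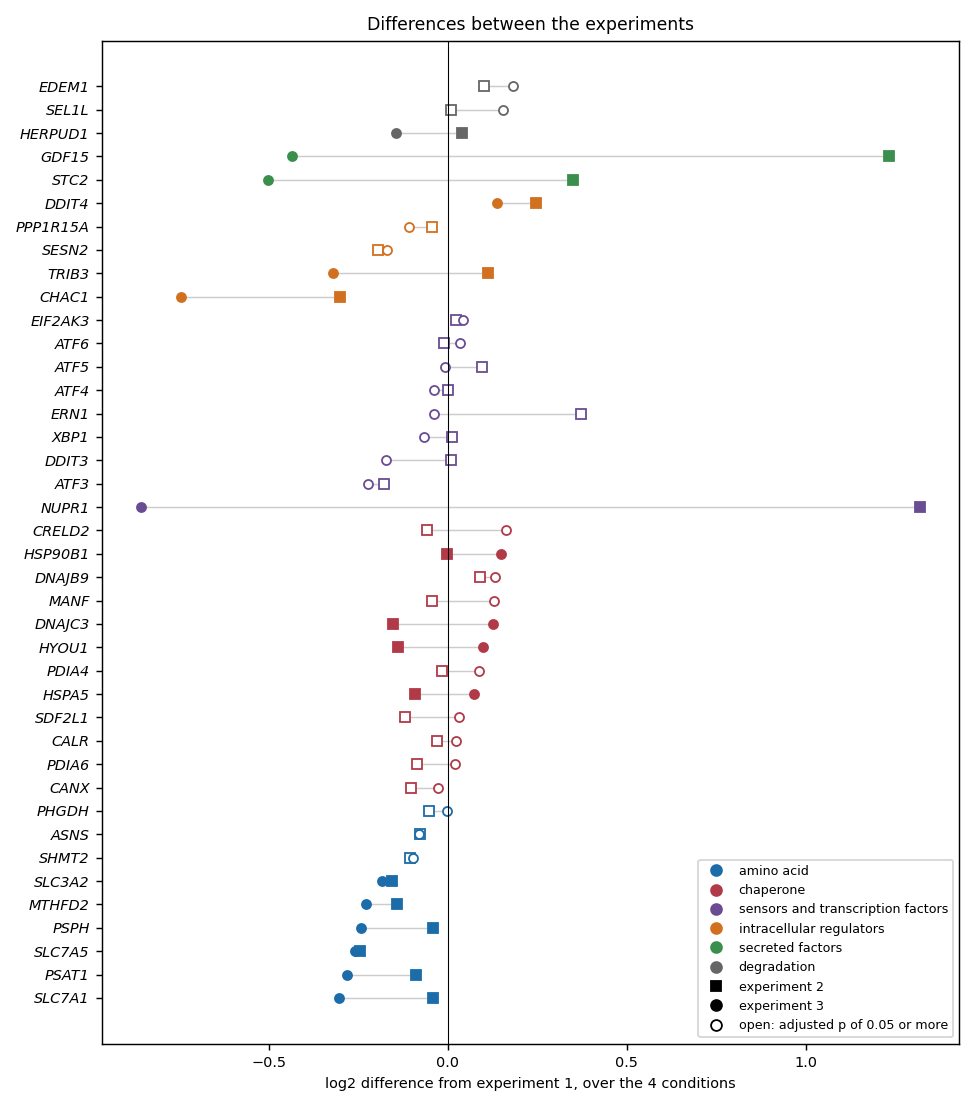
Log2 difference of experiments 2 (squares) and 3 (circles) from experiment 1 over the 4 conditions for the 40 tested members, coloured by role, with open symbols for an adjusted p of 0.05 or more. All 9 amino acid genes lie left of 0 in experiment 3 and 11 of 12 chaperones lie right of it, while *NUPR1* and *GDF15* reach 1.32 and 1.23 in experiment 2.

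Outside the members, 30 further genes of the *ATF4* side and 29 tested genes of the endoplasmic reticulum side were examined. With the experiment as a term, RGZ against vehicle called 3 of the 30 (1 higher, 2 lower) and 2 of the 29 (1 higher, 1 lower), against 9.3% of all genes. *PDIA5*, a disulfide isomerase, was higher at 0.64 (SE 0.13, adjusted p = 0.00262) and *CEBPB*, a transcription factor that pairs with *ATF4*, at 0.47 (SE 0.10, adjusted p = 0.00378). *CBS*, the first enzyme of transsulfuration, was lower at -0.50 (SE 0.08, adjusted p = 0.000426), *ERO1B*, an oxidase of the endoplasmic reticulum, at -0.49 (SE 0.12, adjusted p = 0.0118) and the cystine transporter *SLC7A11* at -0.37 (SE 0.09, adjusted p = 0.0117). *CBS* was the 1 gene of these lists called without the experiment as a term, with an adjusted p of 0.0225 for RGZ against vehicle. It was also higher with the combination than with RGZ in that fit, by 0.53 (SE 0.09, adjusted p = 0.0144). With the experiment as a term the combination against T0070907 alone called 4 of the 30 and 2 of the 29, against 8.76% of all genes. The medians of the wider lists were closer to each other than those of the members. They were -0.03 on the *ATF4* side and 0.03 on the endoplasmic reticulum side for RGZ against vehicle, -0.05 and -0.03 for the combination against T0070907 alone, and -0.05 and -0.04 for the combination against vehicle. Among the genes called for the combination against T0070907 alone was *ALDH1L2*, a mitochondrial folate enzyme, at -0.41 (SE 0.12, adjusted p = 0.0373). Between experiments, 17 of the 30 genes of the *ATF4* side and 7 of the 29 of the endoplasmic reticulum side differed, against 30.5% of all genes.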

How the data were processed

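The series holds 12 RNA-seq libraries of A375 cells, from 4 conditions and 3 independent experiments. The files, as deposited by the authors, hold raw read counts per gene for 23705 genes listed by NCBI gene number, with no normalization; the submitters' processing notes name hg19, while the aligner, the counting tool and the strand setting are not given in the sources used here. Symbols were available for 23538 genes, and 40 of the 41 members were tested. Conditions and experiment numbers came from the labels.

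edgeR 4.0.16 in R 4.3.3 was used for TMM scaling, filterByExpr (13522 genes kept), and a quasi-likelihood fit of 4 conditions to all 12 libraries, with Benjamini-Hochberg adjustment and a threshold of 0.05. The standard error is the absolute log2 fold change divided by the square root of F, and is approximate. The experiment number pairs the libraries: 17 of 18 same-experiment pairs had a correlation of deviations over 0.1 (mean 0.554, lowest 0.0793), and the common dispersion was 0.0193 without and 0.00333 with the experiment as a term (the replicate block). The experiment test was an F test of both experiment terms. In the fit of the 4 conditions, p-values measure the spread between libraries of 3 independent experiments. With the experiment as a term, they measure the spread that remains after the shifts shared by an experiment's libraries are removed. The experiment test is judged against this same remaining spread. DESeq2 1.42.0 and limma 3.58.1 (voom) were alternatives, as were other filters, the threshold 0.01, and each library left out in turn; the last was added to the blocked fit later. Counts were also simulated for RGZ against vehicle (13394 genes). With the block, edgeR recovered 26.9%, 80.6% and 100% of changes of 0.25, 0.5 and 1 on the log2 scale. Without the block, it recovered 0%, 32.8% and 75.8%. It wrongly called 10 unchanged genes with the block and 0 without it. Whether these rates hold for the measured libraries, with or without the block, was not tested. Lengths are of the longest GENCODE 29 transcript. The members, role lists and related genes were chosen with earlier results of these data known. Values in every library are given for members called in a comparison of conditions, the 3 members of each role with the lowest experiment p, *ATF4*, *DDIT3*, *ASNS*, *HSPA5* and members at or under the floor; up to 6 called related genes with the largest change are named. Floors cover counting error only.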

Additional observations from a re-analysis of the deposited data

How the results depend on the processing

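Members called numbered 0 for all comparisons of conditions without the replicate block, also without any single library, under other filters, scalings and tools, except 1 (*PHGDH*, combination against RGZ) with DESeq2. With the block edgeR called 7 for RGZ against vehicle, 1 for T0070907, 0 for the combination against vehicle, 5 against RGZ and 4 against T0070907. These counts were the same with limma-voom and with DESeq2's size factors within edgeR, and 5, 0, 0, 3 and 3 with DESeq2 and the block. Leaving out 1 library in the blocked fit gave 2 to 5, 0 to 1, 0 to 13, 1 to 10 and 0 to 12, while the share of all genes called ranged over 5.24% to 8.06%, 0.222% to 0.459%, 0% to 19.2%, 6.34% to 19.1% and 0.791% to 24.8%. The highest counts of the last 3 came without the combination library of experiment 2, and the cause was not tested. The count for experiments was 12 at a threshold of 0.01 and 13 to 20 with a library left out. The amino acid minus chaperone median of RGZ against vehicle was -0.15 and ranged from -0.221 to -0.0718 with a library left out. The range was -0.0941 to 0.075 for T0070907, -0.256 to -0.0525 for the combination against vehicle, -0.0200 to 0.0781 against RGZ and -0.209 to -0.0524 against T0070907. For *NUPR1* the change with RGZ was from -1.46 (without RGZ 2) to 0.031 (without vehicle 2) in the fit without the block, since those fits no longer balance the experiments. The other called members kept their direction under the alternatives run, and the related genes were not refitted with libraries left out. At this depth and with 3 experiments, changes of 0.25 on the log2 scale were mostly missed in simulated counts even with the block.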
